A study of Homo sapiens with 6 samples.

Results

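The genes described here are 9 clade A serpins that lie side by side on chromosome 14: SERPINA3, SERPINA1, SERPINA4, SERPINA5, SERPINA6, SERPINA9, SERPINA10, SERPINA11 and SERPINA12. They were found by gene name among the 57914 genes of the deposited tables, and each matched 1 row. SERPINA3 was chosen by its fold change between these same groups, where it was among the largest, so its difference is a description and no test is given for it. The other 8 were taken for their family and position. RNA came from A375, an established human melanoma line, stained with Aldefluor, a substrate that turns fluorescent when aldehyde dehydrogenases (ALDH) act on it. Sorting gave the 5% of cells with the strongest signal (ALDH_High, 3 libraries) and the 5% with the weakest (ALDH_Low, 3 libraries). Both groups were grown in the same medium and given the same stain, and the line is the only one used; no genotype, inhibitor or drug separates them.

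Serpins are protease inhibitors that present a reactive loop as bait; once a protease cuts it, the serpin folds around the break and traps the enzyme. The clade A genes of this cluster are best known from liver, which secretes their products into plasma, and several rise there in the acute-phase response to interleukin-6, interleukin-1 and glucocorticoids. SERPINA3 encodes alpha-1-antichymotrypsin, an inhibitor of cathepsin G and mast cell chymase. SERPINA1 encodes alpha-1-antitrypsin, the main inhibitor of neutrophil elastase, and SERPINA5 encodes protein C inhibitor, which acts on activated protein C and on urokinase.

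The 250 bases before the RefSeq start of SERPINA3 and of SERPINA5 are shown because these were the members with higher RNA in ALDH_High. Both are RefSeq sequences of GRCh38.p14, plus strand, at chr14:94612141-94612390 and chr14:94581176-94581425. RefSeq promoter entries matched 9 of the 9 members. The RefSeq start of SERPINA5 lies inside the gene as the GENCODE annotation used below gives it, which begins at 94561442, so its window is the one before the RefSeq start only. Capitals mark the matches to the motifs searched.
SERPINA3: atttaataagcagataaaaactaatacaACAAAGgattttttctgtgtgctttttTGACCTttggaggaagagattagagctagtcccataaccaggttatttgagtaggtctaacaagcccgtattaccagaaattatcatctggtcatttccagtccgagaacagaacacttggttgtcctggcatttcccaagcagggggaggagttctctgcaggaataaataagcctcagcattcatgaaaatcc
SERPINA5: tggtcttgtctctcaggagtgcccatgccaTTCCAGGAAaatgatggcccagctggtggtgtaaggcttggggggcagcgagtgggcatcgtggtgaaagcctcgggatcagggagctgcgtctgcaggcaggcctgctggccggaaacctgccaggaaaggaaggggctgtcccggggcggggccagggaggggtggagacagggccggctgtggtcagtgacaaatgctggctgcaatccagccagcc

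Both strands were searched for 7 motifs. In SERPINA3 the SOX motif ACAAAG began 222 bases before the start, and TGACCT, the reverse complement of the nuclear receptor motif AGGTCA, began 195 bases before it. In SERPINA5 a match to the STAT motif TTCNNNGAA began 220 bases before the start. Of 35116 RefSeq promoter windows of the same length, 13.7% held ACAAAG, 12.1% AGGTCA and 6.57% TTCNNNGAA. The AP-2 motif GCCNNNGGC (19.8% of windows), the TATA motif TATAAA (10.7%), the AP-1 motif TGANTCA (6.57%) and the E-box CACGTG (6.34%) had no match in either sequence. The SERPINA3 and SERPINA5 windows thus held matches to different motifs of the 7, each a match of letters and not a site of binding. The same motifs were also found before members that did not pass or were too low to test. ACAAAG was in windows of SERPINA6 and SERPINA12, AGGTCA in those of SERPINA1 and SERPINA11, and TTCNNNGAA in those of SERPINA6 and SERPINA11.

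Counts of the 6 libraries summed to between 26692868 and 37830603, and pairs of libraries within a group differed by more than sampling noise (chi-square per degree of freedom 12.1 to 50.1). The first principal component (68.2% of the variance) separated the groups, and the second (13.8%) set ALDH_High library 1, at 35.6, apart from ALDH_High libraries 2 and 3, at -16.4 and -22.5. Values are CPM (counts relative to the scaled library size) for comparing libraries and TPM (the deposited values corrected for transcript length) for comparing genes. The labels do not say whether the libraries of a group came from separate cultures, so p-values measure the spread between these libraries, which may be technical. In RNA from sorted pools, more cells with a transcript and more transcript per cell cannot be told apart.

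SERPINA3 (ENSG00000196136, 94612384 to 94624055, plus strand, GRCh38) went from a low level to an abundant transcript between the sorted ends. It had 336, 356 and 284 CPM in ALDH_High libraries 1, 2 and 3, against 3.14, 2.81 and 11.5 CPM in ALDH_Low libraries 1, 2 and 3. The lowest ALDH_High library stood far above the highest ALDH_Low library, and ALDH_Low library 3 held most of what the weakly stained cells had. The ratio of the mean CPM was 55.9 (325 ± 37.3 against 5.82 ± 4.93, SD, n = 3), and the log2 fold change was 5.83 (SE 0.49), the tenth highest of 17047 genes tested. Leaving out ALDH_Low library 3 moved the SERPINA3 value to 6.77. By TPM, SERPINA3 ranked 459 to 580 among the genes of an ALDH_High library and 8361 to 12484 in ALDH_Low.

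SERPINA5 (ENSG00000188488, 94561442 to 94593118, plus strand), the gene just before SERPINA3 on the same strand, rose. Its counts were 138, 106 and 93 in ALDH_High and 25, 11 and 27 in ALDH_Low, or 5.44, 3.07 and 2.73 CPM against 0.648, 0.368 and 0.971 CPM. All ALDH_High values were above all ALDH_Low values. Groups that do not overlap, in either direction, were found for 37.8% of all genes tested. Within ALDH_Low, library 3 was the highest, as for SERPINA3, but with 27 counts against 25 in library 1. Within ALDH_High, SERPINA5 was highest in library 1 and SERPINA3 in library 2. The log2 fold change of SERPINA5 was 2.49 (SE 0.41, edgeR quasi-likelihood adjusted p 0.00192), where 10.8% of all genes tested were called higher. The exact permutation p (two-sided) was 0.1, the smallest that 3 against 3 libraries allow. The rise of SERPINA5 passed in each of the alternatives tried, with adjusted p up to 0.0351 and log2 fold changes from 1.28 to 2.85; the lowest, on log2(TPM + 1), falls on a scale that shrinks low genes.

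SERPINA1 (ENSG00000197249, 94376747 to 94390693, minus strand) did not pass. It had 6.67, 1.85 and 2.55 CPM in ALDH_High against 6.74, 5.39 and 7.08 CPM in ALDH_Low. ALDH_High library 1 lay among the ALDH_Low values, and the other 2 ALDH_High libraries lay below them. The log2 fold change was -0.81 (SE 0.41, edgeR adjusted p 0.205; exact two-sided permutation p = 0.2). Without ALDH_High library 1 the log2 fold change of SERPINA1 was -1.52 (edgeR adjusted p 0.00259), and with the replicate number as a block it was -0.99 (edgeR adjusted p 0.0476). ALDH_High library 1 also had the highest summed level of 10 white blood cell markers (7.65 CPM, against 2.94 to 3.76 CPM in the other 5 libraries) and of 12 hepatocyte markers (5.60 CPM, against 1.68 to 4.06 CPM); the part of these in the SERPINA1 values was not tested. In ALDH_High library 1 a single gene made up most of each sum. Without LYZ the white blood cell markers summed to 0.947 CPM in ALDH_High library 1, 0.674 and 0.782 CPM in the other ALDH_High libraries and 2.14 to 2.36 CPM in ALDH_Low. Without CYP2E1 the hepatocyte markers summed to 0.473 CPM in ALDH_High library 1 and 0.117 to 0.770 CPM in the other 5 libraries.

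SERPINA6 encodes corticosteroid-binding globulin, a serpin that carries cortisol and inhibits no protease. It had 1.18, 0.608 and 0.264 CPM in ALDH_High against 0.441, 0.134 and 0.431 CPM in ALDH_Low, with 4 to 30 counts in a library. The groups overlapped, and the log2 fold change of 0.98 (SE 0.60) did not pass (edgeR adjusted p 0.307).

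The remaining 5 members were too low to be tested. SERPINA10, the protein Z-dependent inhibitor of coagulation factor X in its active form, had 5, 8 and 16 counts in ALDH_High and 13, 9 and 2 in ALDH_Low, so that its groups overlapped. SERPINA9, known from germinal centre B cells, had 3 counts in ALDH_High library 3 and 0 in the other 5. SERPINA11 had 2 counts in ALDH_High library 1 and 0 in the other 5. SERPINA4, which encodes the tissue kallikrein inhibitor kallistatin, and SERPINA12, which encodes vaspin, an inhibitor of KLK7, had 0 counts in all 6 libraries. A count of 0 allows up to 3 counts, or 0.0778 to 0.118 CPM depending on the library, a limit for counting error alone. Over the cluster, 4 of 9 members were tested, and besides SERPINA3 1 of 3 was called higher and 0 lower, against 10.8% and 9.83% of all genes tested (20.6% in either direction).

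The levels per length give the order of the members. In ALDH_High the mean TPM was 285 ± 31.3 for SERPINA3, 3.25 ± 2.07 for SERPINA1, 2.53 ± 0.819 for SERPINA5, 0.642 ± 0.396 for SERPINA6 and 0.209 ± 0.11 for SERPINA10 (SD, n = 3). SERPINA1 and SERPINA5 overlapped between libraries, as did SERPINA6 and SERPINA10, while SERPINA3 stood apart from all. In ALDH_Low the order was SERPINA1 at 5.58 ± 0.674, SERPINA3 at 4.85 ± 3.93, SERPINA5 at 0.431 ± 0.189, SERPINA6 at 0.307 ± 0.164 and SERPINA10 at 0.151 ± 0.0909 TPM. There SERPINA1 and SERPINA3 overlapped, and so did each of the 3 lower genes with its neighbour in the order.

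The share of SERPINA3 in the summed TPM of the 9 members differed between the groups. It was 96.4%, 98.6% and 98.1% in ALDH_High libraries 1, 2 and 3 and 27.8%, 31.4% and 57.3% in ALDH_Low libraries 1, 2 and 3. SERPINA1 made up 61.2%, 61.7% and 36.3% of the sum in ALDH_Low and 0.530% to 1.97% in ALDH_High. ALDH_Low library 3 was the only ALDH_Low library in which SERPINA3 exceeded SERPINA1. Since SERPINA3 was chosen by its difference, these shares are a description too. The sum itself was 292 ± 30.2 TPM in ALDH_High and 11.3 ± 4.50 TPM in ALDH_Low (SD, n = 3).

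**Figure D1:**
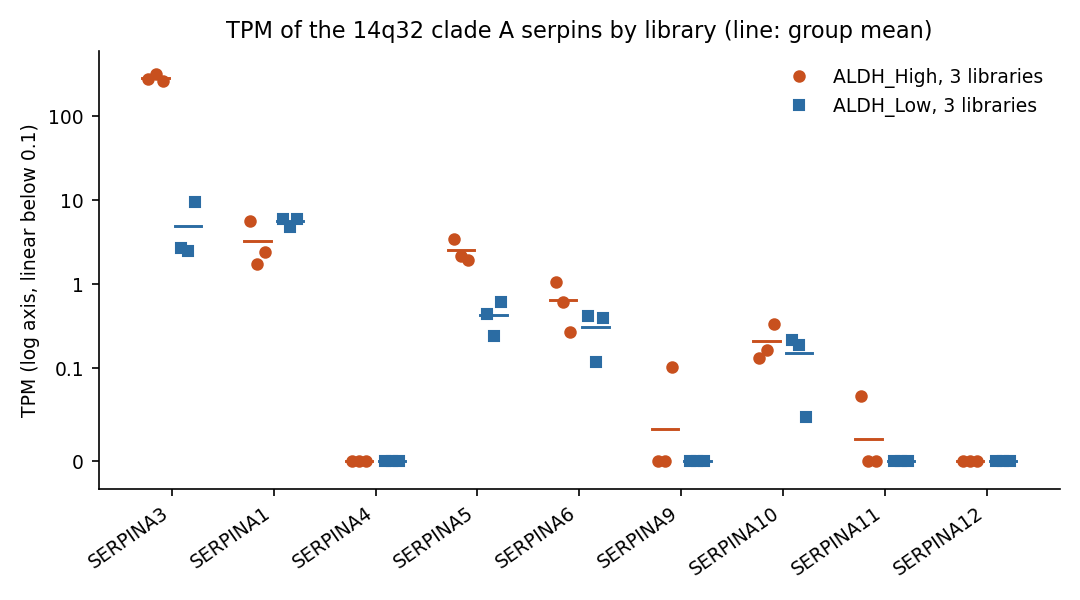
TPM of each of the 9 genes (vertical axis, logarithmic above 0.1 and linear below) in the 3 ALDH_High libraries (circles) and the 3 ALDH_Low libraries (squares), with the group mean as a line. SERPINA3 and SERPINA5 separate by group, SERPINA1 overlaps through ALDH_High library 1 (5.60 TPM), and SERPINA4 and SERPINA12 are at 0 throughout.

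The SERPINA3 row does not stand alone in the annotation. AL049839.2 (ENSG00000273259, 94592058 to 94624646), an uncharacterised coding gene model on the same strand, runs from the last part of SERPINA5 through SERPINA3. It shares 1585 of its 3067 exonic bases with SERPINA3 and 79 with SERPINA5. It had 66, 60 and 58 counts in ALDH_High and 2, 0 and 0 in ALDH_Low. Its mean CPM in ALDH_High was 21.1 times the mean of a floor of 3 counts per ALDH_Low library. That floor is the limit for a count of 0, and ALDH_Low library 1 had 2 counts, so the ratio is not a strict lower bound. How the deposited counts divided reads between AL049839.2, SERPINA3 and SERPINA5 is not given in the sources used here, so the AL049839.2 value is uncertain. The SERPINA3 counts in ALDH_High were 8511, 12300 and 9675. SERPINA5 shares 53 further exonic bases with SERPINA4, which had no counts.

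In the authors' deposited table, coefficients for both sorted groups are set against a group named 1A3, whose libraries were not analysed here. The coefficient of SERPINA3 in the authors' deposited table, read here as log2, is 3.17 for the high sort and -2.66 for the low one. Those of SERPINA5 in the authors' deposited table are 0.23 and -2.29, and those of SERPINA1 are -2.95 and -2.17. So SERPINA3 lay above the 1A3 group in one sort and below it in the other, SERPINA5 was close to it in the high sort, and SERPINA1 was below it in both. The coefficients share the 1A3 group and are not independent.

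Around the cluster, 39 further genes of the tables begin within 1 Mb of the SERPINA3 start, and 14 were expressed highly enough to be tested. Of these 3 rose and 1 fell, against 20.6% of all genes called in either direction, and the median log2 fold change was -0.015 (-0.013 over all genes tested). PPP4R4, a regulatory subunit of protein phosphatase 4 whose gene starts at -466 kb from SERPINA3 and ends just before SERPINA10, had 2.92, 2.98 and 3.52 CPM in ALDH_High against 0.882, 0.870 and 1.22 CPM in ALDH_Low (log2 fold change 1.67 with SE 0.28, edgeR adjusted p 0.00202). PRIMA1, a membrane anchor of acetylcholinesterase at -824 kb, rose by a log2 fold change of 3.58 (edgeR adjusted p 0.000518) from 0.111 ± 0.0674 to 1.4 ± 0.12 CPM (SD, n = 3). CLMN, which encodes calmin, at 708 kb, rose by 1.42 (edgeR adjusted p 0.000209), from 8.39 ± 1.06 to 22.5 ± 2.87 CPM. OTUB2, which encodes a deubiquitinase, had a log2 fold change of -0.95 (edgeR adjusted p 0.0208) and missed the threshold without ALDH_High library 2 or 3 or ALDH_Low library 2 or 3 (0.0546 to 0.0820). The nearest tested gene on the far side of SERPINA3, the homeobox gene GSC 158 kb away, did not pass (log2 fold change 0.63, edgeR adjusted p 0.318), and the gene DICER1, which encodes the enzyme that cuts microRNA precursors, had 33.1 ± 6.95 and 33.1 ± 2.20 CPM. The pseudogenes SERPINA2 and SERPINA13P, within and just beyond the cluster, had 0 counts in all libraries, as did the clade A genes SERPINA7 and AGT elsewhere in the genome.

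**Figure D2:**
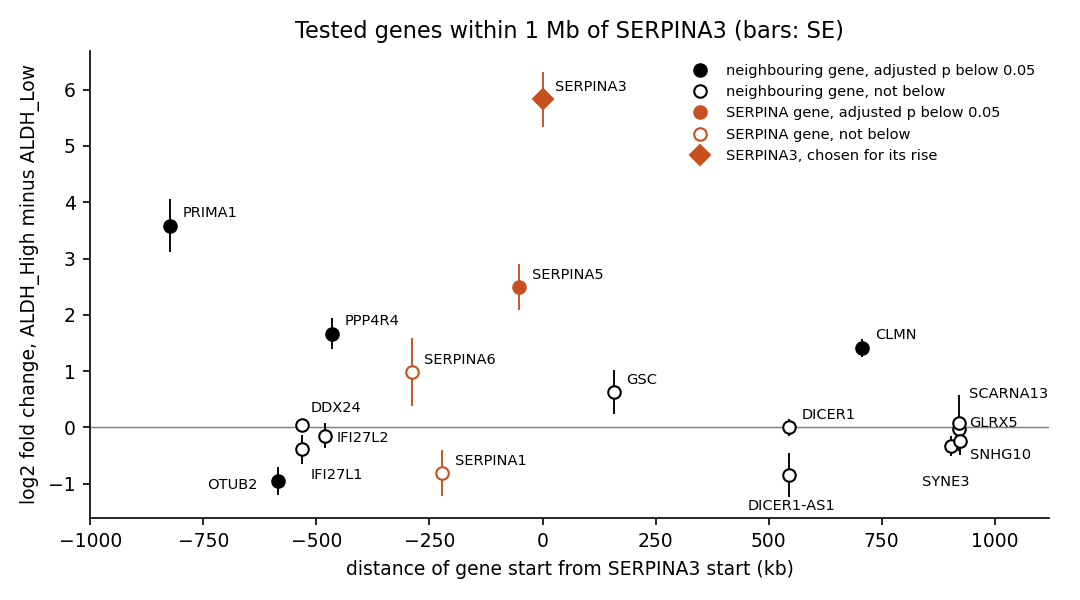
Log2 fold change with its SE (vertical axis) of each tested gene against the distance of its start from that of SERPINA3 in kb (horizontal axis). Filled symbols have an adjusted p below 0.05 and the diamond is SERPINA3; the values of SERPINA3 (5.83) and SERPINA5 (2.49) lie between genes such as SERPINA1 (-0.81) and GSC (0.63) that did not pass.

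Serpins of the other clades moved in both directions. Of the 23 read here, 12 were tested, 3 rose and 4 fell (20.6% of all genes were called), and the median log2 fold change was -0.51. SERPINF1, which encodes the secreted anti-angiogenic factor PEDF, had 13.4, 11.5 and 10.1 CPM in ALDH_High against 1.79, 1.04 and 1.22 CPM in ALDH_Low (log2 fold change 3.09 with SE 0.25, edgeR adjusted p 3.13e-05). SERPINE2, the thrombin and plasminogen activator inhibitor protease nexin-1, was the most abundant of them, at 4933 ± 158 and 1800 ± 246 CPM (log2 fold change 1.45, edgeR adjusted p 3.53e-05). SERPIND1, which encodes heparin cofactor II, rose by 1.03 (edgeR adjusted p 0.0242) and missed the threshold without ALDH_Low library 1, 2 or 3 (edgeR adjusted p 0.0566 to 0.0903). Those of the 23 that fell were the clade B genes SERPINB1, SERPINB6, SERPINB7 and SERPINB8. SERPINB7 fell from 43.8 ± 4.92 to 7.31 ± 0.949 CPM (log2 fold change -2.59, edgeR adjusted p 5.60e-06). SERPINB6, which encodes an intracellular inhibitor, had a log2 fold change of -1.01 (edgeR adjusted p 0.000857). SERPINB8 fell from 49.98 ± 3.98 to 34.6 ± 2.82 CPM (log2 fold change -0.53, edgeR adjusted p 0.0110), and it missed the threshold without ALDH_High library 2 (0.0643) or ALDH_Low library 2 (0.0544).

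Of 15 proteases that the cluster's products are known to inhibit, 10 had at least 1 count and 3 were tested, of which 1 rose and 1 fell (20.6% of all genes were called). CTSG, which encodes cathepsin G, CMA1, which encodes chymase, PRTN3, KLK3 and F10 had 0 counts in all libraries, and ELANE, which encodes neutrophil elastase, had 1 count in 1 library. The plasminogen activators went in opposite directions. PLAT had 561, 468 and 368 CPM in ALDH_High against 122, 96.9 and 99.3 CPM in ALDH_Low (log2 fold change 2.14 with SE 0.17, edgeR adjusted p 2.28e-05). PLAU, which encodes urokinase, a target of protein C inhibitor, had 0.868, 0.637 and 0.205 CPM against 3.37, 1.57 and 2.55 CPM (log2 fold change -2.16 with SE 0.49, edgeR adjusted p 0.0107).

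Of 19 acute-phase genes outside the cluster 5 were tested, 1 rose and 1 fell (20.6% of all genes were called), and the 14 others had at most 33 counts in a library; CRP and FGA had 0 counts throughout. A2M, the broad protease trap alpha-2-macroglobulin, had 8.28, 10.3 and 7.92 CPM in ALDH_High against 0.415, 2.04 and 1.98 CPM in ALDH_Low (log2 fold change 2.60 with SE 0.45, edgeR adjusted p 0.00270). C3, the central complement component, had 3.59, 2.26 and 2.52 CPM against 13.8, 5.39 and 6.97 CPM (log2 fold change -1.66 with SE 0.35, edgeR adjusted p 0.00811). SAA1 (0.98, edgeR adjusted p 0.207) and LCN2 (1.34, edgeR adjusted p 0.232) did not pass.

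Members of the cytokine pathways known from the acute-phase response went in both directions. Of 16 genes of the interleukin-6 family and its path through STAT3, 15 were tested, 2 rose and 5 fell (20.6% of all genes were called), with a median log2 fold change of -0.12. IL6 itself was nearly absent from ALDH_High, with 4, 0 and 5 counts, and had 129, 26 and 57 counts in ALDH_Low (log2 fold change -4.38 with SE 0.75, edgeR adjusted p 0.00241). LIF, OSMR, CEBPB and CEBPD also fell. LIF (log2 fold change -0.67, edgeR adjusted p 0.0342) and CEBPB (-0.50, edgeR adjusted p 0.0322) were near the threshold. Both missed it without ALDH_High library 3, ALDH_Low library 1 or ALDH_Low library 2, and in the 3 limma fits. CEBPD, a transcription factor of the acute-phase response, had 2.54 ± 0.362 CPM in ALDH_High against 5.10 ± 0.695 CPM in ALDH_Low (log2 fold change -1.01, edgeR adjusted p 0.0110; 0.0503 without ALDH_Low library 3). OSMR, the oncostatin M receptor, had a log2 fold change of -0.50 (edgeR adjusted p 0.0198) and missed the threshold without ALDH_High library 2 or 3 or ALDH_Low library 1 or 2. LIFR, the receptor for LIF, rose, with 18.6, 16.8 and 22.9 CPM against 8.59, 7.90 and 4.49 CPM (log2 fold change 1.47 with SE 0.24, edgeR adjusted p 0.00180). STAT3 was higher by 0.37 (99.7 ± 8.35 against 77.4 ± 4.46 CPM, edgeR adjusted p 0.0414) and missed the threshold with the replicate number as a block (0.0663) and without ALDH_High library 2 or 3 or any ALDH_Low library (0.0609 to 0.124). SOCS3, a feedback target of STAT3, had 25.4, 20.1 and 19.7 CPM against 23.7, 32.2 and 28.9 CPM and did not pass (edgeR adjusted p 0.127). With 1 library left out, 3 to 7 genes of this list were called, the fewest (3) without ALDH_High library 3, ALDH_Low library 1 or ALDH_Low library 2, and 4 without ALDH_High library 2 or ALDH_Low library 3.

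Of 15 genes of the interleukin-1, TNF and NF-kB path 14 were tested, with 3 higher and 3 lower (20.6% of all genes were called) and a median log2 fold change of 0.013. IL1B had 0.631, 0.376 and 0.498 CPM in ALDH_High against 9.26, 4.18 and 4.03 CPM in ALDH_Low (log2 fold change -3.55 with SE 0.41, edgeR adjusted p 0.000238). TNFAIP3, the NF-kB target and brake also called A20, fell from 40.9 ± 7.57 to 7.61 ± 2.17 CPM (log2 fold change -2.44, edgeR adjusted p 4.71e-05). NFKBIA, which encodes the inhibitor IkB-alpha, was at the edge of the threshold (-0.54, edgeR adjusted p 0.0487) and missed it without ALDH_High library 1 or 2 or any ALDH_Low library (0.0897 to 0.192). IL1RAP, the accessory chain of the interleukin-1 receptor, rose from 8.68 ± 1.61 to 31.9 ± 5.68 CPM (log2 fold change 1.88, edgeR adjusted p 9.78e-05). NFKB1 rose by 0.78 (edgeR adjusted p 0.000482) and IL1A by 1.33 (edgeR adjusted p 0.0258; 0.0548 to 0.0866 without ALDH_High library 1 or 2 or ALDH_Low library 2 or 3). Those that rose are thus a receptor chain, a transcription factor subunit and a cytokine, and those that fell are a cytokine and a pair of NF-kB inhibitors.

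Of 9 glucocorticoid genes 7 were tested, 0 rose and 3 fell (10.8% of all genes were called higher and 9.83% lower), with a median log2 fold change of -0.66. NR3C1, the glucocorticoid receptor, fell from 73.5 ± 12.1 to 43.1 ± 6.85 CPM (log2 fold change -0.77, edgeR adjusted p 0.00661). DUSP1 had a log2 fold change of -1.42 (edgeR adjusted p 0.00310) and SGK1 one of -0.66 (edgeR adjusted p 0.0357; 0.0508 to 0.131 without any 1 library other than ALDH_Low library 2, and a log2 fold change of -0.36 without ALDH_Low library 1). NR3C1 and SGK1 both missed the threshold in the 3 limma fits (limma adjusted p up to 0.136 and 0.244). The same held for OSMR, OTUB2, NFKBIA and IL1A among the genes above. FKBP5, a standard target of the receptor, had 27.2 ± 4.47 and 26.9 ± 2.87 CPM.

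**Figure D3:**
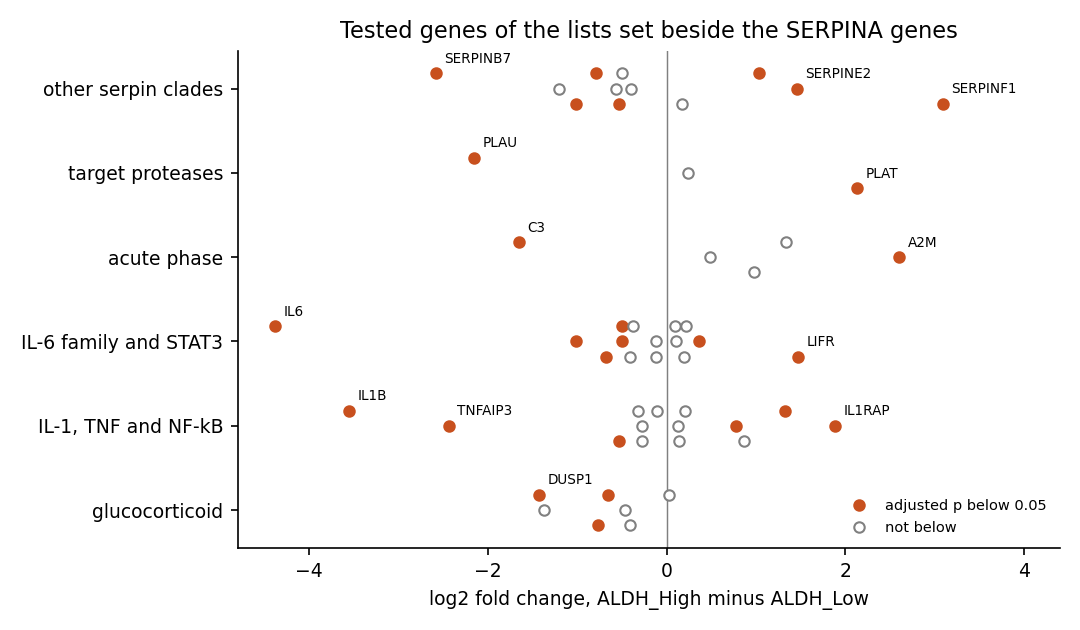
Log2 fold change (horizontal axis) of the tested genes of 6 lists (rows, with points offset vertically for legibility); filled points have an adjusted p below 0.05. Each list but the glucocorticoid genes, where 0 rose and 3 fell, has filled points on both sides of 0, with IL6 (-4.38) and IL1B (-3.55) at the low end and SERPINF1 (3.09) at the high end.

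The cells' own markers and those of the usual sources of clade A serpins were read beside these results. Of 8 melanocyte lineage markers, MLANA, TYR, TYRP1 and DCT had at most 11 counts in a library, so the pigment genes of a melanocyte were near 0 in this line, while SOX10 rose (log2 fold change 1.79, edgeR adjusted p 3.14e-05) and MITF fell (-0.92, edgeR adjusted p 0.00667). The 8 markers summed to 629 to 860 CPM in ALDH_High against 208 to 233 CPM in ALDH_Low, most of it SOX10. Hepatocyte markers were close to 0. ALB had 3 counts in 1 library and 0 in the others, 11 of 12 had at most 11 counts and were not tested, and CYP2E1, the other one, did not pass (log2 fold change -0.00068, edgeR adjusted p 0.999). Hepatocyte markers summed to 1.68 to 5.60 CPM in ALDH_High against 2.26 to 4.06 CPM in ALDH_Low. Of 10 white blood cell markers 3 were tested; PTPRC had at most 4 counts and MPO 0, and the list summed to 3.20 to 7.65 CPM in ALDH_High against 2.94 to 3.76 CPM in ALDH_Low. LYZ was higher (1.65, edgeR adjusted p 0.0240) and CD14 lower (-1.96, edgeR adjusted p 0.0142). LYZ missed the threshold without ALDH_Low library 1, 2 or 3 (0.0548 to 0.0897), and CD14 without ALDH_High library 2 or ALDH_Low library 2 or 3 (0.0599 to 0.0650).

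The 5 genes whose pattern over the 6 libraries lay nearest to that of SERPINA3 were sought among 14048 genes that had a mean CPM of 1 or more, the members and AL049839.2 left out. The measure was the Euclidean distance of log2(CPM + 0.5) after centring each gene on its mean, and the choice rests on the group difference itself, so these values are a description. The nearest was MAF, a bZIP transcription factor (distance 1.5), with 34.1, 31.2 and 33.3 CPM in ALDH_High against 0.207, 0.368 and 2.44 CPM in ALDH_Low. GAS7, which encodes a cytoskeletal adaptor, followed at 1.69, with 323, 268 and 271 CPM against 9.60, 6.83 and 12.8 CPM. The calcium-binding S100A1 (2.00), the extracellular superoxide dismutase SOD3 (2.18) and the calcium-binding S100B (2.36) came next. In each of these 5 genes, as in SERPINA3, ALDH_Low library 3 was the highest of the ALDH_Low libraries. The choice by pattern over the 6 libraries favours genes with this trait. With a pseudocount of 0.1 in place of 0.5, chosen after the data were seen, 2 of the 5 (MAF and S100A1) were again among the nearest 5.

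**Figure D4:**
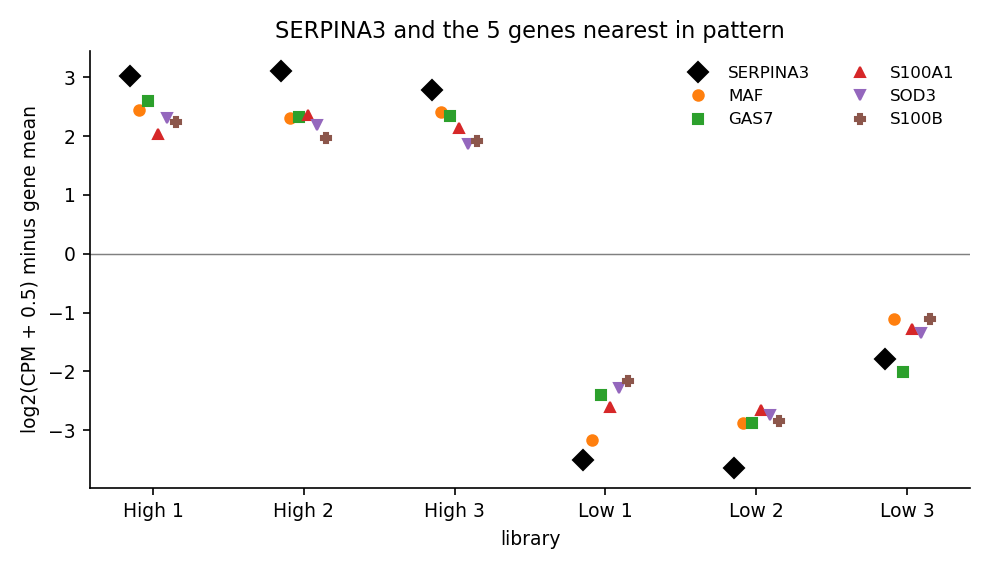
Centred log2(CPM + 0.5) (vertical axis) of SERPINA3 and the 5 nearest genes in each library (horizontal axis). All 6 genes are high in the 3 ALDH_High libraries, and among ALDH_Low libraries each is highest in library 3, where SERPINA3 had 11.5 CPM. The 5 genes were chosen by their likeness to this pattern.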

How the data were processed

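RNA-seq of 3 ALDH_High and 3 ALDH_Low libraries was analysed. Per the submitters' processing notes, FastQC 0.11.3, STAR 2.5.1b, HTSeq 0.6.1, DESeq2 and GRCh38 were named, with no role or order; strand setting and annotation release are not given in the sources used here. The authors deposited whole-number values that look like estimated counts rounded to whole numbers: 133 to 177 genes per library had a count of 0 beside a TPM above 0. Which tool made these values is not given in the sources used here. The authors also deposited TPM values, with the same sum in every library, and, per the file headers, log2 coefficients from a DESeq2 model.

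Genes kept by filterByExpr (17047) were scaled with TMM factors and tested over all libraries with edgeR 4.0.16 (quasi-likelihood, two-sided), with Benjamini-Hochberg adjustment over all of them and a threshold of 0.05; the test was first run on simulated data. SE is the log2 fold change over the square root of F. The alternatives were DESeq2 size factors, upper-quartile factors, other count filters, leaving out each library, a replicate block, DESeq2 1.42.0 and limma 3.58.1 on log2(TPM + 1) or log2(TPM + 0.1). Libraries of equal number deviated weakly together from their group means (correlations 0.19, 0.13 and 0.11). The labels state no pairing, so the main test was unpaired and the replicate block was an alternative only. Ensembl identifiers gave positions and neighbours from GENCODE 44 (GRCh38).

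The members and gene lists were chosen with earlier results of these data known. Named genes were the members, genes overlapping SERPINA3, the other clade A genes, up to 3 called genes of smallest p per list and direction, and the 5 nearest patterns; other names were chosen after their values were seen. No list was given a test of its own, and 1 gene of the list of other serpins is not reported here.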

Additional observations from a re-analysis of the deposited data

How the results depend on the processing

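The log2 fold changes of 41 named genes kept their direction in every alternative tried. SERPINA5 passed in each of them; SERPINA1, which missed the threshold, passed with no filter on low counts, with the replicate block and without ALDH_High library 1, so that 2 members other than SERPINA3 were called there. Among the named genes the block changed 1 other call, that of STAT3. It gave 7 calls against 6 in the interleukin-1 list and 3 against 2 among the white blood cell markers, and 3748 genes in all against 3513, of which 3330 were shared.

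The genes called fell to 2006 (1155 higher, 851 lower) under limma with log2(TPM + 1) and no TPM filter, and to 1930 (1060 higher, 870 lower) at an adjusted p below 0.01, a stricter threshold by construction. In limma on log2(TPM + 1) with a mean TPM of at least 1, on log2(TPM + 0.1), and on log2(TPM + 1) without a filter, the interleukin-6 list had 4, 4 and 3 genes called and the glucocorticoid list 1, 1 and 1. The target proteases had 1 with at least 10 counts in every library, on log2(TPM + 0.1) and without a TPM filter; the acute-phase list had 1 in both fits on log2(TPM + 1). The white blood cell markers had 1 with at least 10 counts in every library and on log2(TPM + 0.1), and 0 in both fits on log2(TPM + 1). The hepatocyte markers had 1 without a count or TPM filter, where 11 and 12 were tested. The neighbourhood had 2 in both limma fits with a TPM filter and 1 within 0.5 Mb, where fewer genes were tested. Otherwise the cause was not tested. With 1 library left out, 2488 to 4221 genes were called in all, 1 to 2 of the members other than SERPINA3, 3 to 7 of the interleukin-6 list and 0 to 3 of the white blood cell markers. Among the named genes C3 and LYZ missed the threshold in both fits on log2(TPM + 1). PLAU missed it on log2(TPM + 0.1) and without a TPM filter, and LIFR, MITF, SERPIND1 and CD14 missed it without a TPM filter. SERPINA4, SERPINA9, SERPINA10, SERPINA11 and SERPINA12 had at most 16 counts in a library and were not tested.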
